A study of Mus musculus with 2 samples.

Results

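Transcription factor genes that the developing limb ectoderm is known to use, namely Sp6, Sp8, Sp9, En1, Trp63, Tfap2a, Tfap2b and Tfap2c, were followed in RNA of whole embryonic mouse limbs. They were chosen by name, matched to the gene symbols of the GENCODE M21 annotation, and all 8 were found among 55536 annotated genes, with 35 of 141862 annotated transcripts. The limbs came from B6NCrl embryos of mixed sex at 12.5 days of development, a mouse strain given with no other allele or treatment. Limbs of 88 embryos were pooled for replicate 1 and those of 68 embryos for replicate 2, and these pools, named biological replicates in the labels, form the single group of the study. Libraries started from 10 ng RNA each with oligo-dT priming, which favours RNA with a polyA tail. With 1 group no conditions were compared, and a p-value below compares these 2 libraries only.

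The apical ectodermal ridge is a strip of thickened ectoderm along the rim of the limb bud that secretes FGFs and keeps the underlying mesenchyme growing. Wnt and beta-catenin signalling in the ectoderm turns on Sp6 and Sp8, zinc finger factors that are needed for ridge FGF8, and En1 is a homeobox repressor of the ventral ectoderm that keeps the dorsal signal Wnt7a out of it. Trp63 encodes p63, the p53 relative on which the ridge and the layered epidermis depend, and AP-2 proteins, encoded by the Tfap2 genes, are factors of ectoderm and neural crest, some of which also act in limb mesenchyme.

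The libraries held 29633457 (replicate 1) and 30118921 (replicate 2) reads of genes. Levels are given in TPM, which is scaled for length and library size, and 1 TPM of a 2000 nt RNA corresponded to 37.5 and 37.9 reads. Spike-in RNA took 3.19% of the reads in replicate 1 and 2.24% in replicate 2. Of the 55536 annotated genes, 15818 reached 1 TPM in replicate 1 and 15964 in replicate 2. The tissue label was checked against markers of the cell types a limb can hold. All 6 limb mesenchyme markers stood at 1 TPM or more in both libraries, from 7.28 TPM for Lmx1b to 375 TPM for Msx1, and summed to 854 and 880 TPM. Of 17 epidermis and ectoderm markers, 16 did so, and the list summed to 487 and 451 TPM. Markers of Schwann cell precursors and melanoblasts, which come from the neural crest and can hold AP-2 RNA too, summed to 25.7 and 25.8 TPM, and those of neurons to 28.0 and 41.5 TPM. The cell type in which any of the 8 genes was transcribed was not measured, and in such bulk tissue fewer cells of a type and less RNA per cell cannot be told apart.

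All 8 genes reached 1 TPM in both libraries, where 15818 of the 55536 annotated genes did in replicate 1 and 15964 in replicate 2. The 8 genes spanned a 27.8-fold range of mean level. Tfap2b was the highest, at 39.0 TPM in replicate 1 and 42.0 in replicate 2 (40.5 ± 2.10 TPM, SD, n = 2), above 72.5% of the genes detected at that minimum. Trp63 stood at 24.2 and 19.7 TPM (21.9 ± 3.15, n = 2) and Tfap2a at 8.86 and 8.03 TPM (8.45 ± 0.587, n = 2). By mean level, Trp63 and 2 of the 3 AP-2 genes thus came before the 3 Sp genes and En1.

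Sp6 stood at 6.02 and 5.22 TPM (5.62 ± 0.566, n = 2), Sp8 at 3.64 and 3.47 TPM (3.56 ± 0.120, n = 2) and Sp9 at 2.34 and 1.99 TPM (2.17 ± 0.247, n = 2). Tfap2c, the third AP-2 gene, lay among them with 3.41 and 3.59 TPM (3.50 ± 0.127, n = 2). En1 was the lowest with 1.44 and 1.47 TPM (1.46 ± 0.0212, n = 2), a level that rested on 72 and 74 reads and exceeded 7.65% of the detected genes. The reads behind the other 7 ran from 157 for Sp9 in replicate 2 to 1654 for Trp63 in replicate 1.

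**Figure D1:**
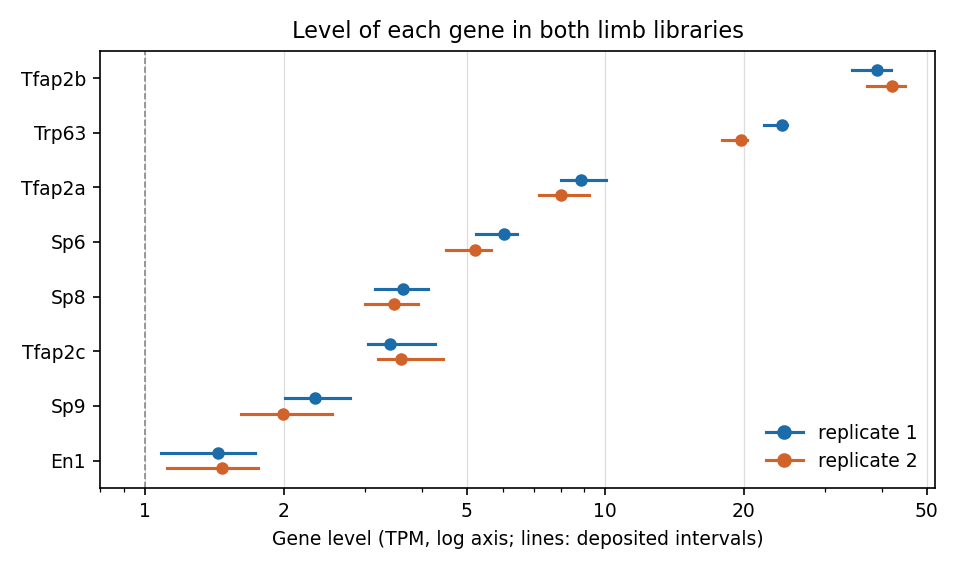
Level of each of the 8 genes in TPM on a log axis, in replicate 1 (blue) and replicate 2 (orange), with the intervals the authors deposited, whose level is not stated, as lines and 1 TPM as the dashed line. The libraries lie close together for every gene, Tfap2b and Trp63 stand apart above the rest, and the intervals of Trp63 do not overlap between the libraries.

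The order of these levels was read against the spread between the libraries. A pair of genes was taken as ordered where the ratio had the same sign in both libraries and its smaller size exceeded the 95th percentile of the library difference among the 500 genes closest in mean level to the weaker gene. By that measure 19 of 28 pairs were ordered. Tfap2b exceeded Trp63 1.85-fold and Trp63 exceeded Tfap2a 2.60-fold, and these were the only 2 of the 7 neighbouring pairs that passed. At the stricter 99th percentile 13 pairs passed, and Tfap2b over Trp63 was no longer among them. That pair also did not pass when reads were not divided by length, with a mean log2 ratio of 0.10 against a spread of 0.25.

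Below Trp63 the steps were smaller than the spread. Tfap2a and Sp6 differed by a mean log2 ratio of 0.59 against a spread of 0.60. Sp8 and Tfap2c changed places between the libraries. Sp6 exceeded Sp9 2.60-fold and passed, whereas neither Sp6 and Sp8 (1.58-fold) nor Sp8 and Sp9 (1.64-fold) could be ordered, and the 2.44-fold step from Sp8 to En1 missed the spread of that level, 1.30 on the log2 scale. With the older GENCODE M4 annotation that last pair passed.

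Trp63 (ENSMUSG00000022510.14, mm10 chromosome 16, 25683763 to 25892102, plus strand) has 8 annotated transcripts, all protein-coding, that differ in start and end. The upstream start gives TA forms, which carry an N-terminal activation domain, and a start 118 kb further downstream gives ΔN forms, which lack it. At the other end the alpha forms carry a sterile alpha motif domain that beta and gamma forms lack. The first coding bases of each start are shown because they decide which form is made, with the start codon in capitals. Sequences were read from the GENCODE M21 transcripts, 5′ to 3′. The TA start lies at chr16:25684290-25684351 and the ΔN start at chr16:25802060-25802101, both on the plus strand of mm10.
TA start: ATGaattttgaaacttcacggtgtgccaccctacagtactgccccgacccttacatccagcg
ΔN start: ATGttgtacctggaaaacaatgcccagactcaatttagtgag

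Most Trp63 RNA was assigned to the ΔN start. The 4 ΔN transcripts summed to 20.7 TPM in replicate 1 and 17.0 in replicate 2, and the 4 TA transcripts to 3.51 and 2.76 TPM. The ΔN start thus held 85.5% and 86.0% of the gene's level (85.7% ± 0.371, SD, n = 2) and the TA start 14.5% and 14.0%. Counted in expected reads instead of levels per length, the ΔN share was 93.0%, since the TA level came from a short transcript. Both starts were lower in replicate 2, and the split between them moved by under 1 percentage point.

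The TA level was carried almost wholly by Trp63-206, a transcript of 1782 nt and 231 codons that stops before the exons of the p63 DNA-binding domain are complete. It stood at 3.45 and 2.76 TPM, from 115 and 92.5 expected reads. Of the 3 longer TA transcripts, Trp63-202 (TA beta) was given 6.29 reads in replicate 1 and 0 in replicate 2, and Trp63-207 (TA gamma) and Trp63-208 (TA alpha, 680 codons) were given 0 reads in both. The deposited intervals of these last 2 reached up to 0.174 and 0.196 TPM. The 3 long TA transcripts together thus stood at 0.06 TPM in replicate 1, below each of the 4 ΔN transcripts.

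Trp63-206 is told apart from the longer TA transcripts by its end, where it reads 676 nt past an exon end at which the others are spliced. The stretch around that point, chr16:25820623-25820759 on the plus strand, is shown with the first bases past the shared exon end and the stop codon in capitals.
Trp63-206 end: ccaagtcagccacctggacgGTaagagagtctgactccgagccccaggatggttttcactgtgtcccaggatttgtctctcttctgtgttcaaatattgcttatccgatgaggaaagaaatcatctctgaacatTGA
Of the 1683 windows of read length (100 nt) in Trp63-206, 678 are in no other Trp63 transcript and 848 lie in TA-only sequence that it shares with longer TA transcripts. Estimates were given per transcript and not per exon. How the reads of Trp63-206 were divided between the TA exons and the read-through end was thus not tested. The ΔN transcripts are spliced at the same exon end, so the sequence past it is also intron of ΔN RNA. Whether ΔN RNA that kept this intron was counted in the TA share was not tested either.

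Among the ΔN transcripts alpha ends led. Trp63-201, the ΔN alpha form of 586 codons, stood at 9.02 and 6.47 TPM, 37.3% and 32.8% of the gene. Trp63-205, at 5.48 and 5.63 TPM, held 22.7% and 28.6%. It is the same form without 12 bases, 4 codons, at the end of an exon that has a pair of possible ends. The stretch at chr16:25866170-25866221, plus strand, is shown with the bases that Trp63-201 keeps and Trp63-205 leaves out in capitals. The bases gt follow directly on either end, as at most splice donors.
Tandem exon ends: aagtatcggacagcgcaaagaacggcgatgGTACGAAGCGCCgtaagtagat

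The split between these alpha transcripts carried the largest deposited SD in reads of the Trp63 transcripts. They differ by 111 of 4604 windows of read length in Trp63-201 and by 99 in Trp63-205. The deposited SD of the estimated reads was 126 of 820 reads for Trp63-201 and 122 of 497 for Trp63-205 in replicate 1, against 3.13 of 115 for Trp63-206. The intervals of Trp63-201 (5.75 to 11.1 TPM) and Trp63-205 (2.98 to 8.12 TPM) overlapped in replicate 1, and those of replicate 2 did as well. Their sum was steadier, at 60.0% and 61.4% of the gene (60.7% ± 0.971, n = 2).

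Among the ΔN transcripts the gamma end came next. Trp63-204, the ΔN gamma form of 393 codons, stood at 5.12 and 3.64 TPM, or 21.2% and 18.5% of the gene (19.8% ± 1.93, n = 2). Its last coding stretch, chr16:25876627-25876741 on the plus strand, is absent from alpha and beta forms and is shown with the stop codon in capitals.
Gamma end: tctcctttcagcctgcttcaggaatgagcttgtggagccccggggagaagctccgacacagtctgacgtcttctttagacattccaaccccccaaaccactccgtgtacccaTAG
Trp63-203, a ΔN transcript of 284 codons that reads 1643 nt past an exon end, stood at 1.03 and 1.21 TPM, 4.26% and 6.14% of the gene. Shares by reads differed from shares by level because lengths differ. By reads the alpha ends held 80.0% and the gamma end 9.26%.

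**Figure D2:**
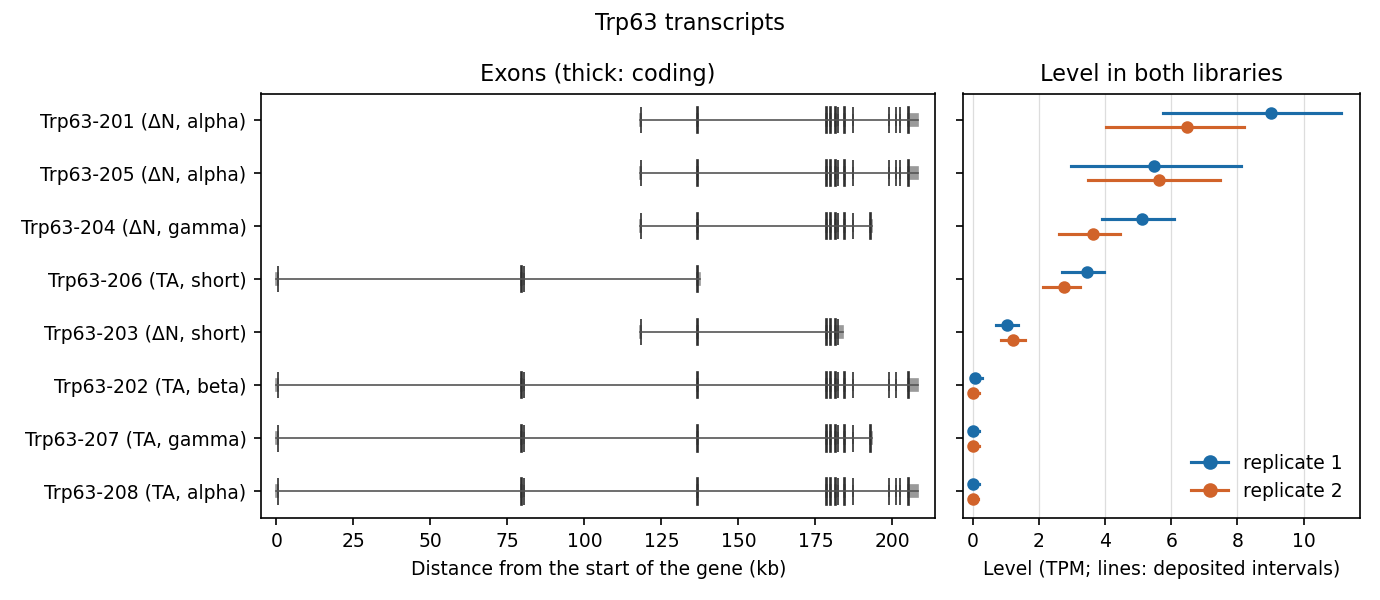
Exons of the 8 Trp63 transcripts by distance from the start of the gene in kb, coding parts tall and dark (left), and the level of each transcript in TPM in replicate 1 (blue) and replicate 2 (orange) with the deposited intervals as lines (right). The 3 highest transcripts begin at the ΔN start 118 kb into the gene, the fourth is the short TA transcript Trp63-206, and the 3 long TA transcripts lie at or near 0 TPM.

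Among its relatives Trp63 held a middle place. Trp53, which encodes the tumour suppressor p53, stood at 141 and 139 TPM and made up 85.8% of the summed level of the p53 family, Trp63 made up 13.4% ± 1.56 (n = 2), and Trp73, at 1.48 and 0.93 TPM, made up 0.736%. Of the 7 paralogues of the 8 genes that were tested between the libraries, 0 were called by the test described below. At any fold Sp2, Sp4, Sp7 and Trp73 passed, all lower in replicate 2, as did 19.2% of all genes.

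The AP-2 genes make similar proteins from alternative first coding exons, and the 5 compared here are of a short or a longer kind. They are given from the start codon, in capitals, to the end of the first coding exon, 5′ to 3′, because the transcripts discussed next differ there. Tfap2a-201 lies at chr13:40730039-40730065 and Tfap2a-206 at chr13:40733670-40733720, both on the minus strand. Tfap2b-202 lies at chr1:19212397-19212423, Tfap2b-201 at chr1:19209168-19209248 and Tfap2c-201 at chr2:172549835-172549882, all on the plus strand of mm10.
Tfap2a-201: ATGttagttcacagtttttcagctatg
Tfap2b-202: ATGttagtccacacctattcatccatg
Tfap2a-206: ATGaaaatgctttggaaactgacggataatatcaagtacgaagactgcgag
Tfap2b-201: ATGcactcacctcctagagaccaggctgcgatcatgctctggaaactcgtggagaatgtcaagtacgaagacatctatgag
Tfap2c-201: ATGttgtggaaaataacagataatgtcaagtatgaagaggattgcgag

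The short exons of Tfap2a-201 and Tfap2b-202 have the same length and 21 of 27 identical bases. The longer exons resemble each other instead, in ungapped comparison. Tfap2a-206 and Tfap2b-201 share 37 of 51 bases, Tfap2a-206 and Tfap2c-201 share 31 of 45, and Tfap2b-201 and Tfap2c-201 share 33 of 48. Every match count given here is the highest over several shifts of the exon ends against each other, which raises it. Within a gene the match was poorer, with 10 of 27 bases between the exons of Tfap2a and 12 of 27 between those of Tfap2b. In both Tfap2a and Tfap2b the longer exon lies upstream of the short one.

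Tfap2a (ENSMUSG00000021359.16, chromosome 13, 40715302 to 40738376, minus strand) was read mainly from the short exon. Tfap2a-201, 431 codons long, stood at 5.02 and 4.53 TPM, 56.7% and 56.5% of the gene. Transcripts that begin with the upstream exon of Tfap2a-206 summed to 1.90 and 1.93 TPM, 22.8% ± 1.85 (n = 2). Among them the protein-coding Tfap2a-206 stood at 0.93 TPM in replicate 1 and 0.28 in replicate 2, on 34.1 and 10.5 reads, while the retained-intron transcript Tfap2a-204 stood at 0.97 and 1.65 TPM. In TPM these 2 moved in opposite directions while their sum stayed level, but the deposited intervals of each overlapped between the libraries. In reads the transcripts of that exon summed to 53.6 in replicate 1 and 43.8 in replicate 2. Tfap2a-209, whose start lies in an extended internal exon, stood at 1.69 and 1.51 TPM, 19.0% of the gene. By expected counts rather than TPM the short exon held 74.5% of the gene, Tfap2a-209 12.7% and the upstream exon 11.3%.

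Tfap2b (ENSMUSG00000025927.13, chromosome 1, 19208914 to 19238576, plus strand) used both of its starts. Tfap2b-202 from the short exon was the leading transcript at 13.9 and 16.3 TPM, 35.7% and 38.9% of the gene. Tfap2b-204 and Tfap2b-201, which begin with the upstream exon, had 6.26 and 5.11 TPM and 5.43 and 4.98 TPM, respectively. Together with the retained-intron transcript Tfap2b-205, the short exon's start held 62.4% ± 4.55 (n = 2) of the level and the upstream start 27.0% ± 4.19. By reads that order turned, to 40.5% for the short exon and 56.9% for the upstream exon, because the transcripts differ in length. Tfap2b-205 (610 nt) held 25.2% of the level but 5.71% and 7.04% of the reads. Tfap2b-201 (5863 nt) held 12.9% of the level but 38.1% and 35.1% of the reads. Tfap2b-202 (1946 nt) changed less, with 31.3% and 36.9% of the reads.

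Much of the Tfap2b level lay in transcripts with no annotated protein. The retained-intron transcripts Tfap2b-205 (610 nt, 9.18 and 11.3 TPM) and Tfap2b-203 (592 nt, 4.22 and 4.33 TPM) made up 35.7% ± 1.95 (n = 2) of the level but 8.95% ± 0.995 of the reads. Over protein-coding transcripts alone Tfap2b stood at 25.6 and 26.4 TPM, a mean of 26.0 TPM in place of 40.5. It was then close to Trp63, whose transcripts are all protein-coding, and Tfap2a stood at 7.04 TPM. For the latter, transcripts of no annotated protein held 12.5% of the level in replicate 1 and 21.2% in replicate 2.

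Tfap2c (ENSMUSG00000028640.11, chromosome 2, 172549593 to 172558622, plus strand), known from trophoblast, germ cells and epidermis, has a first coding exon of the longer kind in its leading transcript. Tfap2c-201 stood at 2.75 and 2.99 TPM, 80.9% and 83.1% of the gene, and Tfap2c-202, from another first exon, at 0.65 and 0.44 TPM. Within the AP-2 family Tfap2b held 77.2% ± 1.62 (n = 2) of the summed level, Tfap2a 16.1% ± 1.62 and Tfap2c 6.67% ± 0.0367. The other two family genes were at the edge of detection. Tfap2e was given 1 read in replicate 1 and 0 in replicate 2, and Tfap2d 0 reads in both, where 3 reads would have been 0.132 TPM in replicate 1 and 0.130 in replicate 2.

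**Figure D3:**
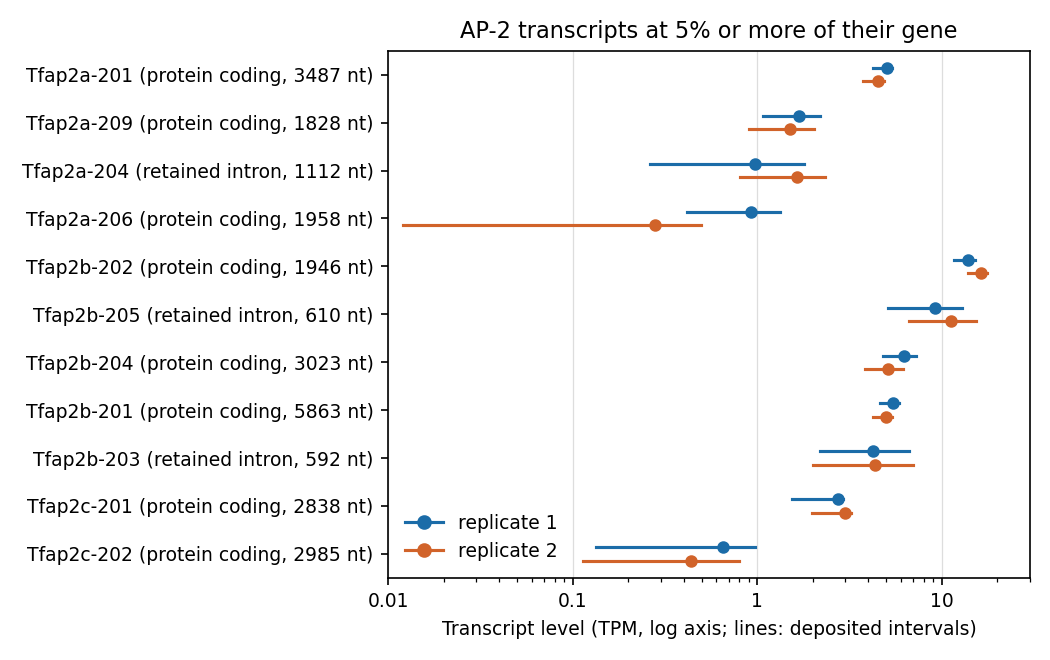
Level in TPM on a log axis of the AP-2 transcripts with a mean share of at least 5% of their gene, in replicate 1 (blue) and replicate 2 (orange), with the deposited intervals as lines; transcript type and length are given beside each name. Tfap2b-202 is the highest at 13.9 and 16.3 TPM. Tfap2a-206 differs most between the libraries, 0.93 against 0.28 TPM, with overlapping intervals. Its interval in replicate 2, 0.0121 to 0.498 TPM, is the widest on this axis.

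Each Sp gene was carried mainly by 1 transcript. Sp6 (ENSMUSG00000038560.7, chromosome 11, 97013394 to 97024734, plus strand), also called epiprofin and needed in tooth and skin epithelium, has 2 transcripts that encode the same 376 codons from different first exons. All 418 and 367 reads were assigned to Sp6-202, whose first exon is the inner one, and none to Sp6-201. The deposited interval of Sp6-201 still reached 1.02 TPM in replicate 1. Only 219 of its 3447 windows of read length are its own, and it shares the rest with Sp6-202. Sp8 (ENSMUSG00000048562.7, chromosome 12, 118846329 to 118852576, plus strand), without which limbs are cut short, had 97.0% and 96.8% of its level in Sp8-201.

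Sp9 (ENSMUSG00000068859.5, chromosome 2, 73271925 to 73284706, plus strand), expressed in the ridge together with Sp8, was carried by Sp9-201, at 2.34 TPM in replicate 1 and 1.75 in replicate 2. In replicate 2 a further 2.71 reads were assigned to Sp9-202, a noncoding transcript of 656 nt. Those few reads made up 0.24 of the 1.99 TPM of the gene there. Hence the difference in reads, 204 against 157, was larger than the difference in gene TPM.

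Within the subfamily of Sp6 to Sp9 the shares were 39.4% for Sp6, 25.0% for Sp8, 15.2% for Sp9 and 20.4% for Sp7, or osterix, a factor of bone-forming cells, which stood at 3.34 and 2.51 TPM. Sp5, a target of Wnt signalling, was below the minimum at 0.81 and 0.73 TPM. Of the remaining members, Sp3 had 63.4 and 59.6 TPM, Sp1 had 8.68 and 9.69 TPM, Sp2 stood at 13.9 and 10.9 TPM and Sp4 at 13.3 and 11.6 TPM. Sp6, the highest of the 3 ridge genes of this family, was thus below the lowest of these 4.

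En1 (ENSMUSG00000058665.8, chromosome 1, 120602418 to 120607992, plus strand) has a single transcript of 2624 nt and 401 codons, so its level involved no division between transcripts. No read was assigned to its paralogue En2, for which 3 reads would have been 0.0442 TPM in replicate 1. Wnt7a, which En1 represses in ventral ectoderm, stood at 4.47 and 4.05 TPM, and Lmx1b, which Wnt7a turns on in dorsal mesenchyme, at 7.72 and 6.84 TPM. Whole limbs hold both sides, so these levels say nothing of where each gene was expressed.

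Reads of other genes could enter some of these levels. On the same strand no window of read length in any of the 8 genes occurs in another annotated gene, so at that length none of their sequence was common to a near-identical copy. On the opposite strand 86.4% of the windows of Sp6 lie in the noncoding gene Gm11532 (0.29 and 0.28 TPM), 6.24% of those of Tfap2a in Gm26688 (2.45 TPM in both) or Gm47061 (1.02 and 0.42 TPM), and 3.50% of those of Sp9 in Cir1 (21.4 and 20.8 TPM) or Gm2810. Whether counting used strand was not given, and reads of Sp6 and Gm11532 cannot be told apart without it. Their expected counts were not whole, at 418.45 and 29.55 in replicate 1 and 366.62 and 29.38 in replicate 2. Sp6 shares no window on its own strand, and how reads were divided between these genes was not tested. Among genes within 10 kb at 0.5 TPM or more, only Scrn2 beside Sp6 (27.4 and 25.9 TPM) lay on the same strand as its neighbour.

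Levels differed little between the pools. Of the 8 genes 0 were called different by a two-sided exact binomial test of their reads, with library sizes scaled by edgeR's TMM, at a Benjamini-Hochberg adjusted p under 0.05 and at least 2-fold. The same rule called 1.07% of 15926 genes tested. DESeq2 size factors also called 0 of the 8, but the choice of scaling could not have changed that count. The fold is taken from TPM, and the log2 ratio largest in size among the 8 was -0.29, for Trp63. At an unadjusted p under 0.05 there were 4, namely Trp63, Sp9, Tfap2a and Sp6, where 29.9% of all genes tested passed. The test compares these 2 libraries and treats reads as independent molecules, so its p-values cover counting error only. At any fold 1 of the 8, Trp63, passed the adjusted threshold, where 19.2% of all genes did.

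Trp63 was lower in replicate 2, by 0.28 on the log2(TPM + 1) scale, with 1382 reads against 1654 (adjusted p = 2.59e-06, exact binomial test). The difference without a pseudocount, 0.29, lay below the 95th percentile of 0.37 among the 500 genes nearest in level and above their median of 0.10. Sp9 came next (adjusted p = 0.0507), followed by Tfap2a (0.154) and Sp6 (0.156), all with lower values in replicate 2. Sp8, Tfap2c, Tfap2b and En1 had adjusted p-values from 0.753 to 1.

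By TPM 5 of the 8 genes were lower in replicate 2, as were 7430 of all 15926 genes tested, with a median log2 ratio of -0.09 against 0.01 over all of them. Tfap2b, at 0.10 by TPM, stood at -0.01 when TMM-scaled reads were compared, so its direction depends on the scale. Of 16 epidermis and ectoderm markers tested, 13 were lower in replicate 2, with a median of -0.10. Their part in the difference of Trp63 was not tested.

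**Figure D4:**
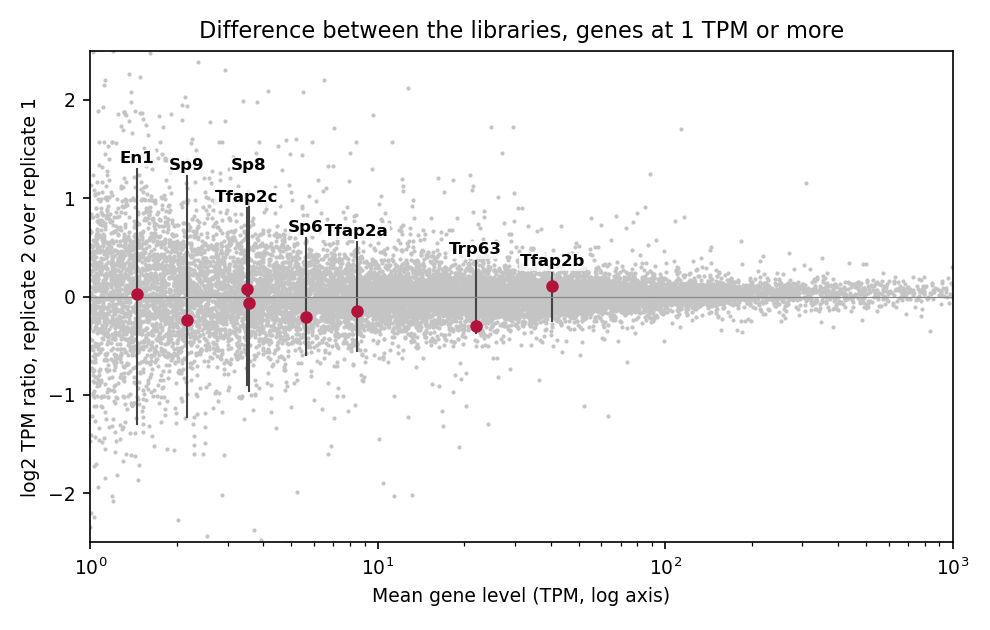
Log2 TPM ratio of replicate 2 over replicate 1 against mean level (TPM, log axis) for 15645 genes at 1 TPM or more (grey; 121 lie outside the axes), with the 8 genes in red and black lines to the 95th percentile of the 500 genes nearest in level. Each of the 8 lies within its line, Trp63 nearest to the end of it at -0.29.

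The other genes of the pathway were taken from lists. Of 11 apical ridge genes 9 reached 1 TPM in both libraries and 0 of the 9 tested were called. They were led by the homeobox genes Msx2 (50.2 and 57.4 TPM) and Dlx5 (33.2 and 27.1 TPM) and by Fgf8, the main ridge signal, at 14.3 and 12.8 TPM, above all 3 ridge Sp genes. Fgf4, another ridge FGF, was the lowest with 0.38 and 0.39 TPM on 22 and 23 reads. At any fold 3 of the 9 tested passed, 2 of them higher in replicate 2. Of all genes 19.2% passed at any fold and 1.07% were called.

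All 15 genes of the signals that act on the ectoderm and of dorsoventral signalling reached 1 TPM. By the binomial test 5 of them passed at any fold, 4 lower in replicate 2. Of all genes 19.2% passed at any fold and 1.07% were called. Ctnnb1, which encodes beta-catenin, stood at 578 and 580 TPM, Wls, needed to secrete Wnt proteins, at 129 and 132 TPM, and the FGF receptor gene Fgfr2 at 96.1 and 89.4 TPM. Wnt4, the lowest by mean level, was the only 1 of the 15 called, with 2.00 TPM in replicate 1 and 5.51 in replicate 2 (adjusted p = 1.90e-29, exact binomial test).

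The leading epidermal genes were above the factors themselves. Krt14 and Krt5, keratins of the basal layer, had 125 and 115 TPM and 85.2 and 80.7 TPM, respectively, and Cdh3, or P-cadherin, at 48.6 and 51.9 TPM, with 0 of 16 tested genes called. At any fold 5 of the 16 passed, 4 of them lower in replicate 2. Ovol1, a factor of later epidermal cells, was the one below 1 TPM, at 0.94 and 0.95. All 12 genes listed as known targets of p63 reached 1 TPM, from Dlx6 at 1.88 ± 0.177 TPM (n = 2) to Krt14, and 9 of 12 were lower in replicate 2, with 0 called. At any fold 5 of these 12 passed, all 5 lower in replicate 2, against 19.2% of all genes. Krt14, Fgfr2 and Krt5 lead that list too, and the lists share genes.

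Genes for partners of these factors were all present. Of 12, Itch, a ubiquitin ligase for p63, stood at 55.0 and 59.0 TPM, Kctd15, an inhibitor of AP-2, at 49.8 and 53.1 TPM, and Tle3, a Groucho corepressor of the kind that En1 binds, at 55.6 and 47.1 TPM. Cited4, which encodes an AP-2 coactivator, was the lowest at 5.29 and 4.80 TPM. None of the 12 was called by the binomial test, and 5 passed at any fold, where 19.2% of all genes did.

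Of the 9 lists the neuronal one had the largest median difference between the libraries, 0.56 on the log2(TPM + 1) scale. All 5 neuronal genes tested passed at any fold, 4 of them higher in replicate 2, against 19.2% of all genes. Nefl, a neurofilament gene, was called with 3.97 and 9.95 TPM (adjusted p = 1.56e-36, exact binomial test). The highest of the list were Tubb3 (7.13 and 11.5 TPM), Dcx (8.14 and 7.11 TPM) and Stmn2 (5.66 and 8.79 TPM), and Elavl3 was at 0.01 and 0.18 TPM. Of the crest-derived markers Erbb3 had 12.0 and 13.3 TPM and Sox10 3.47 and 3.28 TPM, the lowest gene of the list was Foxd3 at 0.71 and 0.68 TPM, and 0 of 6 tested were called, with 1 passing at any fold. Of the mesenchyme list Prrx1 stood at 160 and 155 TPM and Prrx2 at 151 and 160 TPM.

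**Figure D5:**
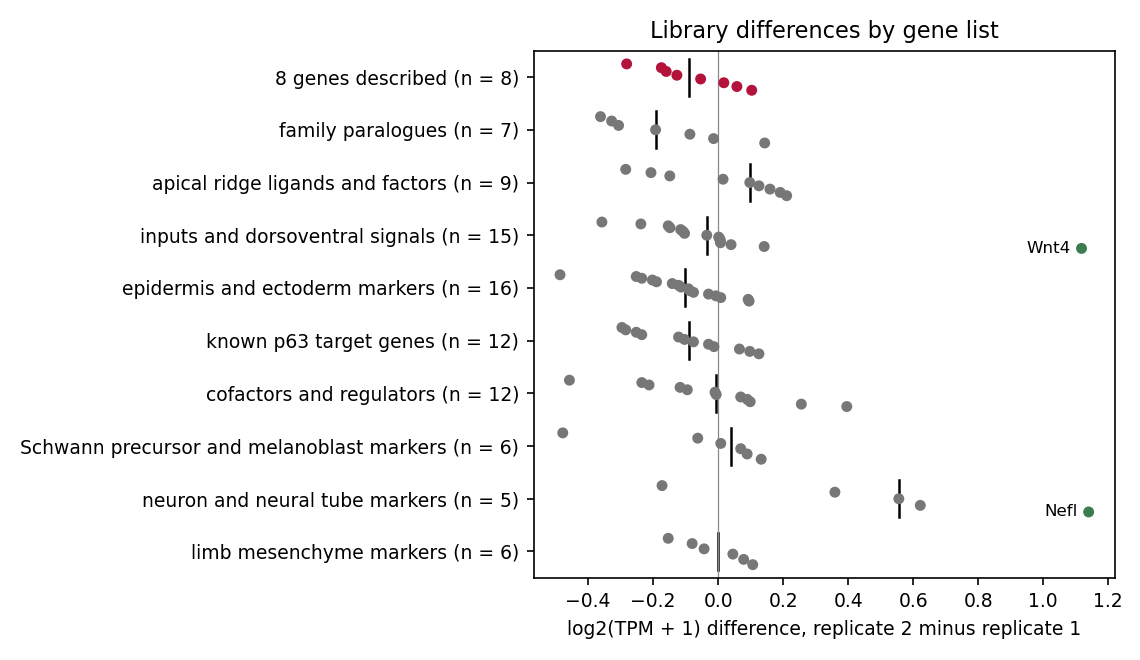
Difference between the libraries on the log2(TPM + 1) scale, replicate 2 minus replicate 1, for the 8 genes (red) and the genes tested in each list (grey, called genes green), with the median of each row as a black bar. The 8 genes lie between -0.28 and 0.10, while Wnt4 and the neuronal gene Nefl stand apart above 1.

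Levels were also read with the M4 annotation. For 7 of the 8 genes the M4 annotation gave 1.02 to 1.06 times the M21 level, and the median over 14912 genes was 1.05 times. Tfap2a stood at 6.64 ± 0.573 TPM (n = 2) with M4, 0.786 times its M21 level of 8.45. M4 holds 2 transcripts of the gene and M21 holds 9, and 391 reads were assigned to it with M4 in replicate 1 against 458 with M21. In M4 its leading transcript held 89.5% of the level, against 56.6% in M21. With M4 levels the pairs of Sp8 and En1 and of Tfap2c and En1 were ordered, and that of Tfap2a and Tfap2c no longer was.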

How the data were processed

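Limb RNA of 1 group with 2 libraries was analysed. The authors estimated expected counts per gene and transcript, which need not be whole, and normalized them to TPM and FPKM. The deposited tables also give the percent of each transcript in its gene and intervals of TPM, in columns named as RSEM writes them. Per the labels, each library was quantified on mm10 with GENCODE M21, used here, and M4, an alternative. Not given in the sources used here were the aligner, program versions and use of strand.

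Symbols, exons and sequences come from GENCODE M21. TPM covers spike-in and tRNA entries, which were left out of library sizes. Reads in the text are expected counts. Expected counts were rounded for the exact binomial test, with TMM library sizes from edgeR 4.0.16 in R 4.3.3, over genes at a mean of 1 TPM. Scaling by DESeq2 1.42.0 was an alternative. A count of 0 was given the limit of 3 reads, which covers counting error only. Ratios are log2(TPM + 1) unless stated, which understates changes of low genes. Transcript shares are percent of the summed TPM. Windows of read length are all stretches of 100 nt, taken from the difference between length and effective length (99 nt). Python 3.11.15, pandas 2.3.3 and matplotlib 3.10.9 were used. The test was tested on simulated data.

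The text names the 8 genes, every Trp63 transcript with 1 read or more, other transcripts with a share of at least 10%, all paralogues, of each list the 3 highest, the lowest and any called gene, and genes overlapping a member or within 10 kb at 0.5 TPM. Outside this rule Wnt7a, Trp63-207, Trp63-208, Sp6-201, Sp9-202, Tfap2a-206, Gm11532 and Gm2810 were named after their values were seen. The 8 genes, the 9 lists and the rules were chosen with earlier results of these data known. Signal tracks and alignments were not analysed here. One list gene that the rule names is not reported here.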

Additional observations from a re-analysis of the deposited data

How the results depend on the processing

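Of 180 recomputed values, 152 stayed within a margin and 28 moved further. The margin was the SD of the 2 libraries for levels and shares, a fixed size for log2 ratios and 1.5 times for counts. Leaving out 1 library always moves a level or share by less than that SD, so those alternatives could not move. Reversed directions were not counted. Of the 28, 10 were levels of the 8 genes. Tfap2b, for instance, stood at 44.2 TPM when spike-in, tRNA and mitochondrial entries were left out of the scaling. En1 is the gene most limited by depth, with 72 and 74 reads. All 8 genes stayed at the minimum level with 0.5 TPM, M4, rescaled TPM and either library alone, 6 did at 2 TPM and 7 at 1 FPKM. The count of the 8 genes called different stayed 0 except with no fold minimum, where it was 1, Trp63. None of the 8 differed 1.5-fold in TPM, so the other alternatives could not have called any. Among all genes 170 were called, and 378 with no filter on low levels, 38 at a mean of 5 TPM, 432 at 1.5-fold and 3065 with no fold minimum. The number of ordered pairs ran from 13 at the 99th percentile to 22 when reads were not divided by length. The ΔN share of Trp63 moved from 85.7% to 93.0% when expected counts were used and lay between 85.5% and 86.0% with either library left out. No Trp63 transcript is shorter than 1000 nt, so that alternative changed nothing. The TMM-scaled ratio of Tfap2b had the opposite sign to its TPM ratio. No paired analysis was possible because there is a single group.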
